A study of Mus musculus with 6 samples.

Results

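Peroxisomes are single-membrane organelles that shorten very long and branched fatty acids, break down the hydrogen peroxide this produces, and carry out the opening steps in the synthesis of ether lipids such as the plasmalogens of muscle membranes. Their assembly proteins, the peroxins, insert membrane proteins and import folded enzymes from the cytosol: soluble receptors bind the cargo, dock at the membrane, and are then ubiquitinated and pulled out again for another round. The genes described here are 26 of this system, out of 18193 genes with a probe set of 1 platform symbol. They were taken from a list of symbols that was chosen with earlier results of these data known. They comprise 12 peroxin genes and 14 genes for peroxisomal enzymes and transporters, and all 26 had at least 1 such probe set.

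The cells were C2C12, an established line of mouse myoblasts, muscle precursors that can fuse into myotubes. By their labels they were undifferentiated, and they were kept for 72 h in 100 mm dishes in 1 of 2 media, basal medium (untreated) or medium with 50 mM sodium pyruvate. Each was DMEM carrying 4 mM glutamine, 10% fetal bovine serum and 1% antibiotics. Only the pyruvate medium is described as built on DMEM free of pyruvate, and no medium matched for sodium was analysed here. There were 3 samples per group, each on 1 array, and the series title asks about pyruvate and mitochondrial biogenesis. Whether replicate samples came from different cultures is not stated, so the tests below reflect the spread among the arrays of a group, which may be technical only. C2C12 is a single line, so nothing here speaks for other myoblasts.

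Values are MAS5 signals, a linear measure of probe set brightness that the authors had scaled to the same trimmed mean, 150, on every array. Median signals were 30.3 to 33.0, and arrays correlated across probe sets at 0.985 to 0.991 within a group and 0.979 to 0.983 between groups. Among the myoblast markers, 4 of 6 were lower and 1 higher with pyruvate, with summed signals of 8350 to 8727 in untreated and 7290 to 7481 in pyruvate arrays. Of the 5 myotube markers, Myog, Acta1, Tnnc2 and Mylpf fell, and the summed signal went from 4474 to 4829 down to 529 to 710. The groups therefore also differed in muscle differentiation transcripts, and the part of this in the results below was not tested. Summed signals of adipocyte, macrophage, osteoblast and endothelial markers stayed at or under 167 on every array; 7 of their 12 measured markers lay below the signal filter, and Kdr, an endothelial receptor gene, was called lower (48.1, 39.0 and 34.1, then 26.1, 27.5 and 23.7). In bulk RNA, fewer cells of a type and less RNA per cell cannot be told apart.

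Each gene was read on its brightest probe set, and differences are given on the log2(signal + 16) scale, which understates the change of dim genes. A gene was called higher or lower where its limma adjusted p, Benjamini-Hochberg over all probe sets tested, was below 0.05. In pyruvate cells 9 of the 24 members tested were higher and 2 lower, while 20.7% of all genes tested were higher and 14.5% lower. Of the 12 peroxins, 5 were higher and 0 lower by limma, with 1 lower at an unadjusted p under 0.05. Of the 12 enzymes and transporters tested, 4 were higher and 2 lower. The median log2 change was 0.18 for the peroxins and 0.13 for the enzymes and transporters, against 0.03 for all genes tested. The values overlapped widely, from -0.12 to 0.50 in the peroxins and from -0.36 to 0.54 in the others, and the difference between these lists was not tested. The peroxin count fell to 2 without untreated replicate 1 and to 3 without pyruvate replicate 2 or 3, and the peroxin median to 0.10 without pyruvate replicate 1. The median of the enzymes and transporters was 0.20 without untreated replicate 1 and 0.08 without pyruvate replicate 1. The remaining 2 members, Abcd2 and Ehhadh, lay below the signal filter and were not tested.

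**Figure D1:**
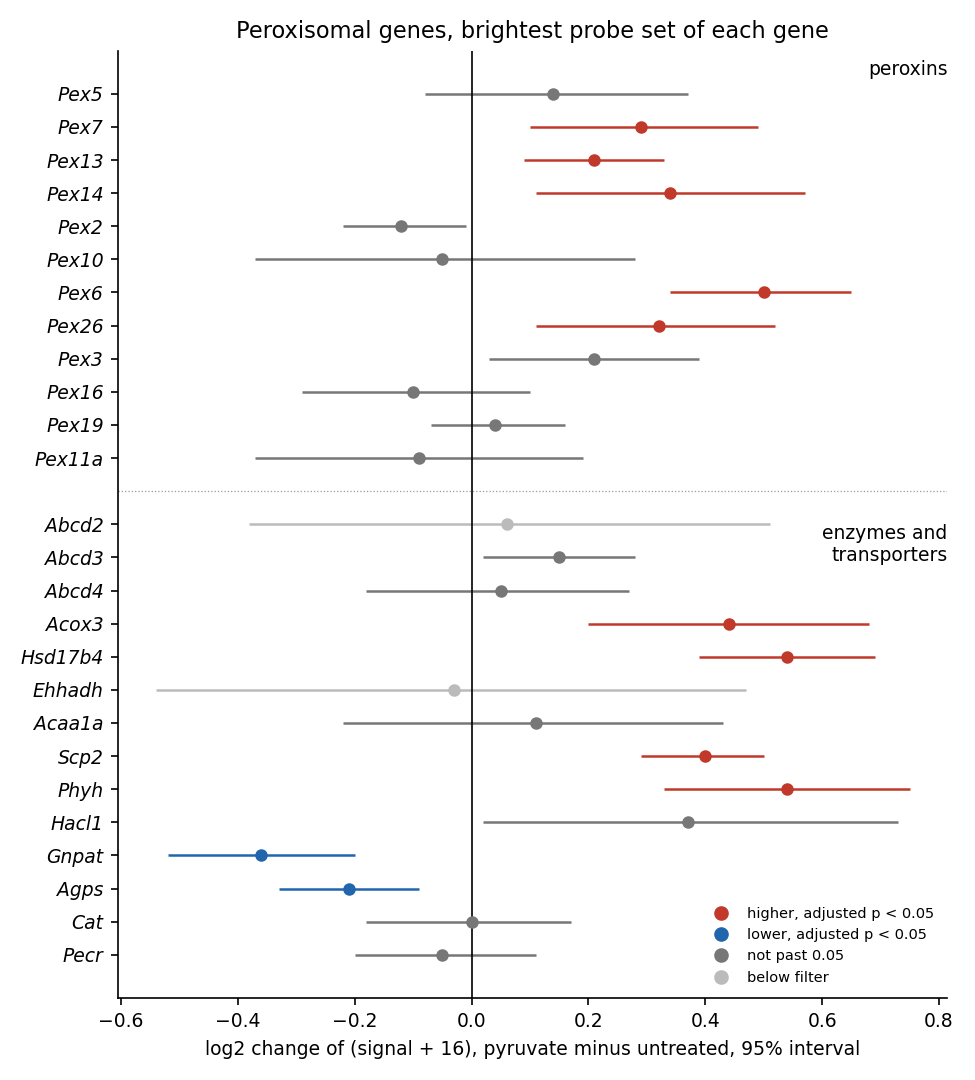
The log2 change (pyruvate minus untreated, horizontal axis) of the brightest probe set of each of the 26 genes, with its 95% interval from limma. Red points are the 9 genes called higher, blue points the 2 called lower, dark grey those not past 0.05 and light grey the 2 below the filter; the peroxins in red lie between 0.21 and 0.50.

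The lists were also read array by array. Taking each gene's deviation from its untreated mean, the median over the peroxins was -0.01, 0.03 and 0.00 on the untreated arrays and 0.17, 0.17 and 0.11 on the pyruvate arrays. For the enzymes and transporters it was 0.02, -0.04 and 0.03, then 0.27, 0.16 and 0.08. Over all genes tested the pyruvate arrays stood at 0.04 each, so the enzymes and transporters were close to this on pyruvate replicate 3. Their list holds genes called higher and genes called lower, which a median does not separate. The 3 pyruvate arrays lay above all untreated arrays in 10 of 24 members and below them in 3, where the shares over all genes tested were 28.6% and 20.0%.

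**Figure D2:**
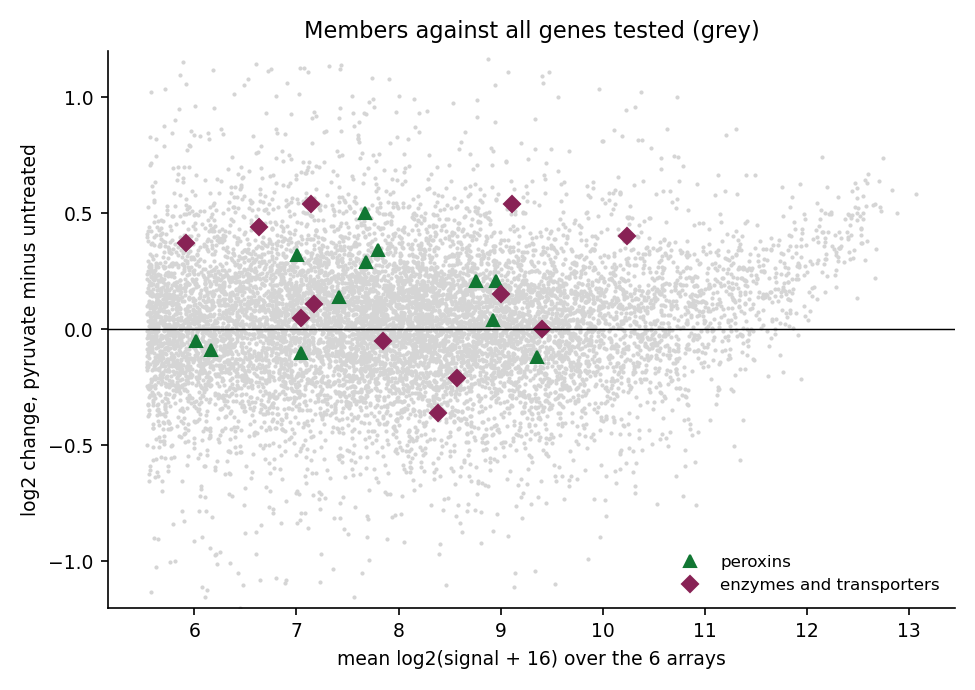
Log2 change (vertical axis) against the mean log2(signal + 16) over the 6 arrays (horizontal axis) for all 10685 genes tested (grey), with peroxins as green triangles and enzymes and transporters as purple diamonds. The axis stops at 1.2 in either direction, which leaves out 73 genes; every member lies within 0.54 of 0 and inside the grey cloud.

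Upstream sequence is shown for the genes these results turn on: the receptor-recycling pair Pex6 and Pex26, the enzymes Scp2 and Phyh, and the ether lipid genes Gnpat, Agps and Far1. Each run is the 250 bases before the gene's start, 5′ to 3′ on the gene's strand, from RefSeq on GRCm38.p6, a table that held 21 of the 26 members. They are chr17:46711226-46711475 (+) for Pex6, chr6:121183417-121183666 (+) for Pex26, chr4:108118548-108118797 (-) for Scp2, chr2:4918746-4918995 (+) for Phyh, chr8:124862783-124863032 (+) for Gnpat, chr2:75831927-75832176 (+) for Agps and chr7:113513584-113513833 (+) for Far1. Capitals mark matches, on either strand, to the GC box GGGCGG, to CCAAT, to the ETS core CCGGAA and to the nuclear receptor half-site AGGTCA.
Pex6: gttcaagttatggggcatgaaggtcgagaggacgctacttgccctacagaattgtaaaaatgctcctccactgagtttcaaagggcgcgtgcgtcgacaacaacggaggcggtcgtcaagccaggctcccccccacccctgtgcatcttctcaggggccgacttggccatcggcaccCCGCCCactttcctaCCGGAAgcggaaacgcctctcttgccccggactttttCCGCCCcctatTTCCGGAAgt
Pex26: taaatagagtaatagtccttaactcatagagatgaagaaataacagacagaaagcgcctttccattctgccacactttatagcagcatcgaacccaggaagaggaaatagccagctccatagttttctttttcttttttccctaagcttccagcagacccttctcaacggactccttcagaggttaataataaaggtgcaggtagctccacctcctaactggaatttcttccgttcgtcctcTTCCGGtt
Scp2: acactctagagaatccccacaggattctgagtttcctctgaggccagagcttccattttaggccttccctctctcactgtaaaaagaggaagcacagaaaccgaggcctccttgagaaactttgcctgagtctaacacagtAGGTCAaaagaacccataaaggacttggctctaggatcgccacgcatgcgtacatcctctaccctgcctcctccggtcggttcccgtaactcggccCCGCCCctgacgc
Phyh: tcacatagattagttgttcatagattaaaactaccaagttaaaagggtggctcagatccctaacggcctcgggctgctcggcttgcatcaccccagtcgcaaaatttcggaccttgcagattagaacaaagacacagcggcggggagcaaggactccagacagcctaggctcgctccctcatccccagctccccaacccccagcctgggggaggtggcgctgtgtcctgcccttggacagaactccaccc
Gnpat: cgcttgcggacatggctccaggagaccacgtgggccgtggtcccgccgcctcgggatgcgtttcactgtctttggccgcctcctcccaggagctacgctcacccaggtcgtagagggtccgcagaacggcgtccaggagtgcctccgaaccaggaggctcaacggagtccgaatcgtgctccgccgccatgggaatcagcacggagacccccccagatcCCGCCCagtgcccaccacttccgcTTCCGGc
Agps: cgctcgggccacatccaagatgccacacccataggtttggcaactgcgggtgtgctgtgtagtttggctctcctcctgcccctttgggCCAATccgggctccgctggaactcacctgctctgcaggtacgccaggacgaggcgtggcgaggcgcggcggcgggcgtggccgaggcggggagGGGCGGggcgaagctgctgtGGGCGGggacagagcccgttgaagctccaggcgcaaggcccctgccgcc
Far1: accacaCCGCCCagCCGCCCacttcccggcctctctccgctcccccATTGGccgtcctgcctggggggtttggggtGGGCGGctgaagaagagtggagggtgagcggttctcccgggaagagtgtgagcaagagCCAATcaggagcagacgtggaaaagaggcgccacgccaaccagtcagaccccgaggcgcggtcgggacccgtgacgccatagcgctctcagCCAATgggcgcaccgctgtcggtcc

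The spaced repeat AGGTCANAGGTCA, the element bound by PPAR and RXR receptors at many peroxisomal genes, was searched on both strands and contains the half-site. It was in 0 of 25 windows of the 21 members with sequence and in 0.0335% of all 32851 windows. At so low a share, 0 in 25 windows tells nothing about the members. Only exact matches within 250 bases were counted. The half-site was in 2 member windows, those of Cat and Scp2, and in 14% of all windows. GGGCGG was in 16 of the 25 and 32.7% of all, CCAAT in 10 and 33.8%, and CCGGAA in 8 and 12%. In Pex6 a pair of CCGGAA matches on opposite strands overlap, and the Pex6, Pex26 and Gnpat windows each hold CCGGAA within 10 bases of the start. These matches describe letters in the window and are no evidence of binding.

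Of the import receptors, Pex7 rose and Pex5 did not pass. Pex7, which carries enzymes with an N-terminal targeting signal such as Phyh and Agps, read 149, 185 and 178 on the untreated arrays and 222, 212 and 202 on the pyruvate arrays. All pyruvate values lay above the untreated ones, a log2 change of 0.29 and a standard error of 0.09 (limma adjusted p = 0.028). Pex7 was among the less firm calls: its limma adjusted p was 0.064 without the signal filter and up to 0.12 when untreated replicate 1, pyruvate replicate 1 or pyruvate replicate 2 was left out. Pex5, the receptor for the C-terminal signal that most matrix enzymes carry, was at 147 ± 10.2 and 165 ± 23.6 (SD, n = 3), with overlapping arrays. Its log2 change of 0.14 had a 95% interval of -0.08 to 0.37.

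Both genes of the docking complex, where loaded receptors meet the membrane, were called higher, as were 20.7% of all genes tested. Pex13 was tight in untreated cells, at 446, 449 and 446, and read 550, 503 and 507 with pyruvate. The groups did not overlap, and the log2 change was 0.21 with a standard error of 0.06 (limma adjusted p = 0.013). Pex14 read 156, 189 and 205, then 215, 225 and 268, so the lowest pyruvate array was only just above the highest untreated one. Its log2 change was 0.34 with a standard error of 0.11 (limma adjusted p = 0.030), and it was lost when untreated replicate 1, untreated replicate 2 or pyruvate replicate 3 was left out (highest adjusted p over its alternatives 0.12).

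Both recycling genes were called higher as well, against 20.7% of all genes tested, while the ubiquitin ligase genes did not pass. Pex6, an AAA ATPase that extracts the ubiquitinated receptor, had the largest change among the peroxins as read on their brightest probe sets: 154, 159 and 154 in untreated cells and 235, 226 and 219 in pyruvate cells. The groups stood well apart, at 156 ± 3.06 and 227 ± 8.01 (SD, n = 3), a log2 change of 0.50 and a standard error of 0.07 (limma adjusted p = 0.00031). It was called in each of 18 alternatives, at 0.28 with the mean over its 5 probe sets. In that setting Pex7, Pex14 and Pex26 were at 0.29, 0.34 and 0.32, but with 1 probe set each their values could not change. Of the other Pex6 probe sets, 2 were called higher (0.29 and 0.64) and 2 did not pass (0.01 and -0.04). Pex26, which anchors that ATPase to the membrane, read 95.9, 106 and 97.8, then 119, 138 and 128. The groups did not overlap, and the log2 change was 0.32 with a standard error of 0.09 (limma adjusted p = 0.023). Pex26 lost its call without untreated replicate 1 or 3 or pyruvate replicate 2 or 3, with an adjusted p of at most 0.083.

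Pex2 and Pex10 encode RING ligases that ubiquitinate the receptor. Pex2 read 666, 655 and 686, then 621, 613 and 615: every pyruvate array was below every untreated one, but the log2 change of -0.12 did not pass (limma adjusted p = 0.091). A dimmer Pex2 probe set did not pass either (-0.22, limma adjusted p = 0.21). Pex10 was at 50.5 ± 7.77 and 48.5 ± 9.49 (SD, n = 3), near the filter signal of 30.3, with an interval of -0.37 to 0.28.

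None of the membrane assembly genes passed on its brightest probe set, although 2 of the 3 had another probe set that did. Pex3 and Pex16 recruit membrane proteins, and Pex19 is their soluble chaperone. Pex3 read 355, 375 and 435, then 424, 437 and 490, a log2 change of 0.21 (limma adjusted p = 0.071) with the groups overlapping, and passed without untreated replicate 3. Its second probe set gave 248, 240 and 250, then 305, 294 and 298, and was called, at 0.27 (limma adjusted p = 0.0061). Pex19 was at 464 ± 8.28 and 480 ± 19.9 (SD, n = 3) on its brightest probe set (0.04, limma adjusted p = 0.57), whereas a second went from 311 ± 14.7 to 400 ± 29.0 and was called (0.35, limma adjusted p = 0.0027). A dimmer Pex19 probe set did not pass (-0.14, limma adjusted p = 0.54). Pex16 was at -0.10, with an interval of -0.29 to 0.10. Pex11a, which elongates peroxisomes before they divide, was at -0.09, with an interval of -0.37 to 0.19.

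**Figure D3:**
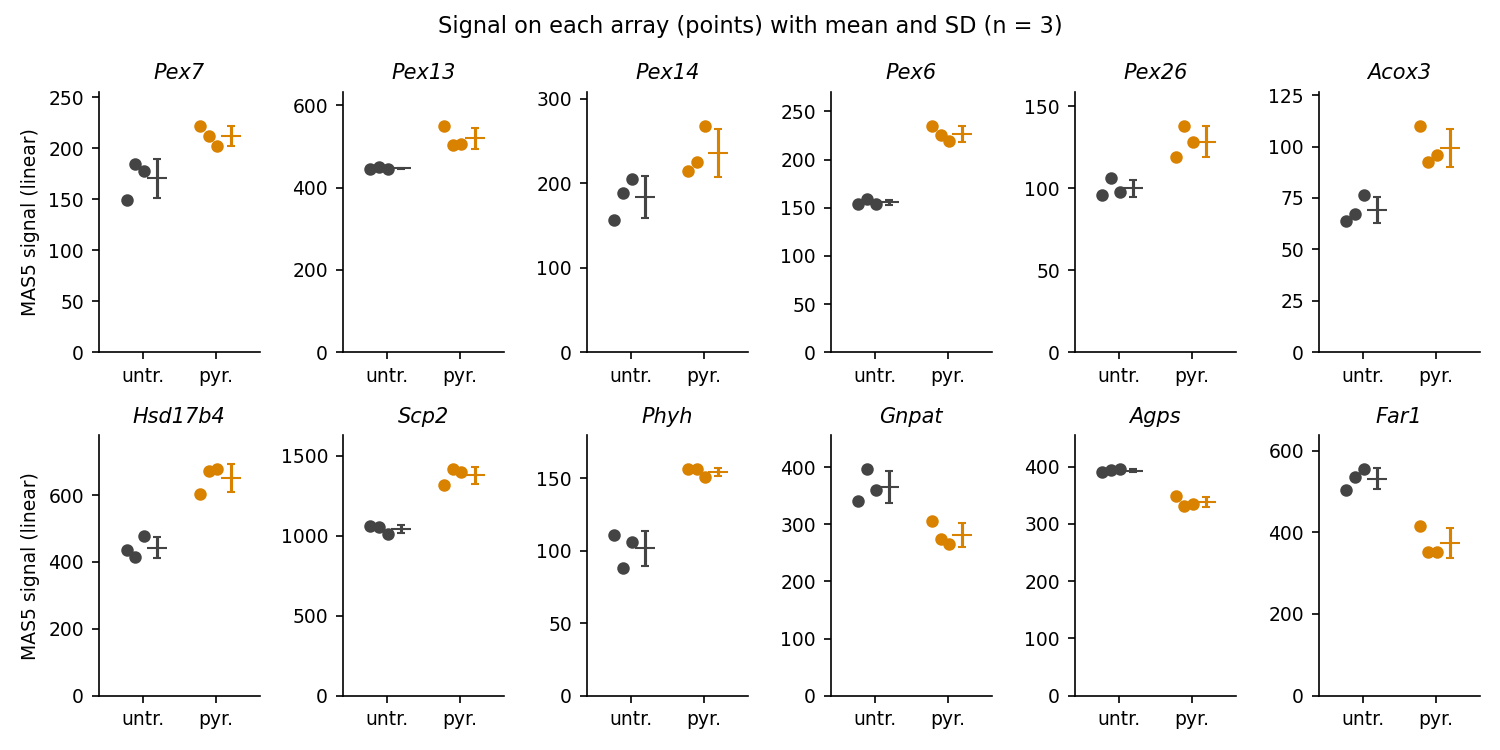
MAS5 signal on a linear axis from 0 for the 11 members called and for Far1, with each array as a point (untr., untreated; pyr., pyruvate) and the mean and SD of 3 arrays beside it. In each panel the pyruvate points all lie on 1 side of the untreated points: above for the 5 peroxins and 4 oxidation enzymes, below for Gnpat, Agps and Far1.

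Of the 5 beta-oxidation genes 4 were tested, and 3 of them rose, where 20.7% of all genes tested did. With the mean over probe sets Acox3 alone passed, but it had only 1 tested probe set, so this setting could not change its value. Hsd17b4, the bifunctional protein that hydrates and dehydrogenates very long and branched acyl chains, read 435, 415 and 478 in untreated cells and 604, 673 and 677 in pyruvate cells. The groups were far apart, a log2 change of 0.54 and a standard error of 0.07 (limma adjusted p = 0.00013). Scp2, whose gene encodes both the thiolase of branched-chain beta-oxidation and a sterol carrier protein, read 1058, 1055 and 1012, then 1318, 1413 and 1397. Its log2 change was 0.40 with a standard error of 0.05 (limma adjusted p = 0.00012), and 0.37 after quantile normalization. Acox3, an oxidase of branched acyl-CoAs, read 64, 67.3 and 76.2, then 110, 92.4 and 95.9, without overlap. It rose by 0.44 with a standard error of 0.11 (limma adjusted p = 0.010). The thiolase gene Acaa1a overlapped, at 124 ± 28.1 and 134 ± 22.0 (SD, n = 3), with an interval of -0.22 to 0.43. Ehhadh, the other bifunctional enzyme, never exceeded a signal of 12.1.

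The calls for Hsd17b4 and Scp2 rest on 1 probe set each, of 2 and 3 tested. Those for Pex7, Pex13, Pex14, Pex26, Acox3, Phyh and Gnpat also rest on 1, the only probe set tested of each gene. A second Hsd17b4 probe set read 467, 441 and 447, then 287, 431 and 480, with pyruvate replicate 1 far below the rest, and did not pass (-0.20, limma adjusted p = 0.30). The next Scp2 probe sets were at -0.04 and -0.22, not past the threshold. Averaged over probe sets, neither gene passed: Hsd17b4 was at 0.17 (limma adjusted p = 0.21) and Scp2 at 0.05 (limma adjusted p = 0.55).

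In alpha-oxidation, which removes 1 carbon from branched acids such as phytanic acid, Phyh, the phytanoyl-CoA hydroxylase, rose. It read 111, 87.8 and 106, then 156, 156 and 151, or 102 ± 12.2 and 154 ± 2.98 (SD, n = 3). The log2 change was 0.54 with a standard error of 0.10 (limma adjusted p = 0.0015), and it was called in each of 18 alternatives. Phyh has 1 probe set, so the mean over probe sets could not change its value. Hacl1, the lyase of the next step, read 33.0, 47.4 and 32.5, then 50.7, 66.0 and 43.6. These overlapped, and 0.37 did not pass (limma adjusted p = 0.10).

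Transcripts of the 2 members for ether lipid synthesis went the other way, both called lower, as were 14.5% of all genes tested. Gnpat, which acylates dihydroxyacetone phosphate in the opening step, read 341, 396 and 360 in untreated cells and 305, 274 and 266 in pyruvate cells. It fell by 0.36 on the log2 scale with a standard error of 0.07 (limma adjusted p = 0.0035), called in each of 18 alternatives. Gnpat too has 1 probe set, which the mean over probe sets could not change. Agps, which exchanges the acyl group for the ether-linked alcohol, read 390, 394 and 395, then 348, 332 and 335. It fell by 0.21 with a standard error of 0.05 (limma adjusted p = 0.014), and its second probe set fell further, from 151 ± 5.87 to 97.3 ± 10.2 (SD, n = 3), a log2 change of -0.56 (limma adjusted p = 0.00096). On the brightest probe set Agps was lost under median centring of the arrays (limma adjusted p = 0.077).

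Far1, the reductase that supplies the fatty alcohol for the Agps step, was no member but stood on a list of other peroxisomal genes. It read 503, 536 and 554, then 416, 353 and 352, with all pyruvate arrays lower. It fell by 0.49 with a standard error of 0.07 (limma adjusted p = 0.00038), and 4 of its 5 probe sets were called lower.

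The transporters and the remaining enzymes did not pass. Abcd3, a half-transporter that brings acyl-CoAs into the peroxisome, read 472, 438 and 500, then 531, 524 and 516. Its pyruvate arrays were all higher, by 0.15 (limma adjusted p = 0.069, and 0.042 without untreated replicate 3). Abcd4, an ABCD family protein that is placed in lysosomes, was at 113 ± 9.29 and 118 ± 13.3 (SD, n = 3), and Abcd2 at 28.4 ± 9.18 and 29.7 ± 2.15. Pecr, which reduces trans-2-enoyl-CoA, was at 219 ± 7.94 and 212 ± 11.1, with an interval of -0.20 to 0.11.

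Catalase (Cat), which destroys hydrogen peroxide, depended on the probe set. The brightest read 682, 616 and 695, then 648, 750 and 595, with no shift (0.00, interval -0.18 to 0.17). The second read 591, 533 and 587, then 612, 772 and 656, and was called higher (0.24, limma adjusted p = 0.038). Over all probe sets of the members, 39 of 53 were tested, of which 14 were called higher and 3 lower, against 16.3% and 15.9% of all probe sets tested. No member had probe sets called in opposite directions.

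**Figure D4:**
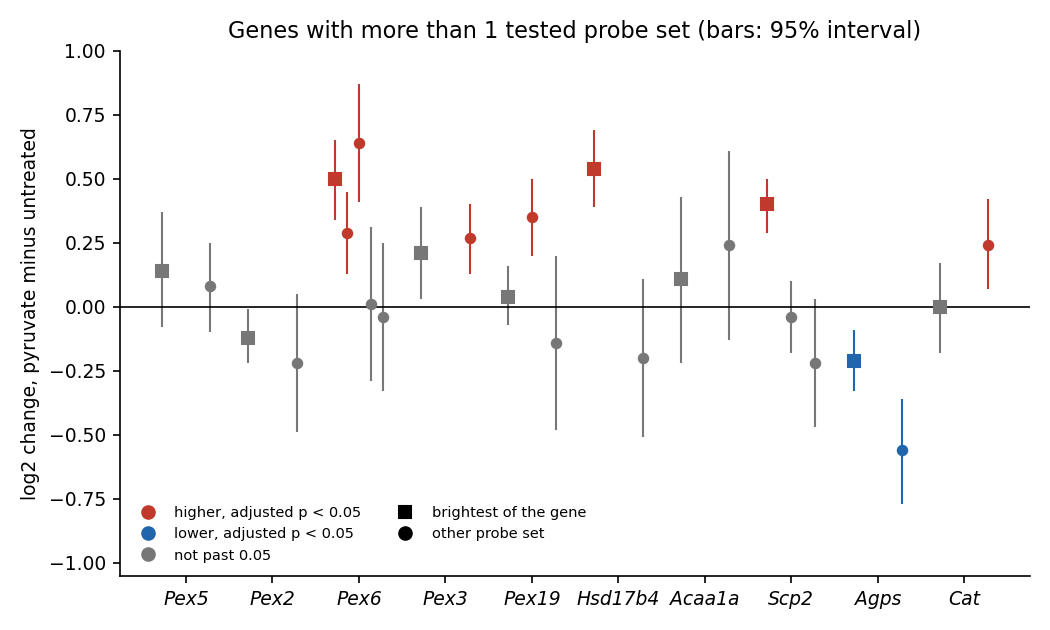
Log2 change with its 95% interval for each tested probe set of the 10 members that have more than 1, brightest first (squares). Both Agps probe sets are blue, 3 of the 5 of Pex6 are red, and in Pex3, Pex19 and Cat a dimmer probe set is red while the brightest is grey.

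Of 42 other genes for peroxisomal proteins, 34 had a probe set and 22 were tested, with 4 higher (18.2%) and 3 lower (13.6%) and a median log2 change of 0.04. These shares were near those of all genes. Besides Far1, Acbd5, which tethers peroxisomes to the endoplasmic reticulum, fell by 0.38 (limma adjusted p = 0.0028), though a dimmer probe set was at 0.04. Amacr, the racemase that readies branched acyl-CoAs for oxidation, fell by 0.26 (limma adjusted p = 0.0067). Ech1, a dienoyl-CoA isomerase, rose from 555 ± 27.1 to 682 ± 46.5 (SD, n = 3; 0.29), and Crot, which makes acylcarnitines for export, from 315 ± 16.2 to 373 ± 15.3 (0.23, not called without untreated replicate 2). Nudt19, a CoA diphosphatase, rose by 0.21, with a second probe set at 0.28. The other gene higher, Idh1, fell outside the naming rule and is named after its value was seen (0.16).

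Among 15 genes for peroxisome division, turnover and transcriptional control, 12 were tested, of which 2 rose (16.7%) and 3 fell (25%), against 20.7% and 14.5% of all genes tested. The coactivator gene Ppargc1b read 325, 340 and 319, then 213, 166 and 170, and fell by 0.80 (limma adjusted p = 6.2e-05). Usp30, a deubiquitinase of mitochondria and peroxisomes, rose by 0.54 on its brightest probe set, and Fis1, an adaptor for organelle fission, by 0.32. Mff, the fission factor that recruits the dynamin Dnm1l, fell by 0.26, and Med1, a Mediator subunit that binds PPAR receptors, by 0.33. These falls are those of the brightest probe sets, and each gene had another probe set called higher (0.16 for Mff and 0.22 for Med1). Averaged over their probe sets, Acbd5, Usp30, Fis1 and Med1 did not pass (limma adjusted p from 0.051 for Usp30 to 0.52 for Med1). The receptor gene Ppara lay below the filter, with no array above 22.8, and Ppard, Pparg, Rxra and Rxrb did not pass. The coactivator gene Ppargc1a also lay below the filter, at 33.7 ± 5.7 and 27.1 ± 10.2 (SD, n = 3) on its brightest probe set, and was not tested. All its probe sets were lower with pyruvate, at log2 changes of -0.23 to -0.67.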

How the data were processed

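RNA of 6 samples was measured on Affymetrix Mouse Genome 430 2.0 arrays. The deposited values are MAS5 signals, intensities on a linear scale, per the submitters' processing notes; software version and settings: not given in the sources used here. Each array had a mean of 150 after its top and bottom 2% of values were trimmed, so the authors had scaled them, and this was kept. Arrays carry no read depth, and their number limits the precision.

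Of 45101 probe sets, 64 controls were left out. Of the other 45037, 34945 carried 1 symbol in the platform annotation, 932 several and 9160 none; 34741 matched RefSeq by Entrez identifier, with 0 symbols changed. Probe sets were tested if their mean log2(signal + 16) was at least the median, 5.53, which left 22519 probe sets and 10685 genes. The test was limma 3.58.1 in R 4.3.3 (eBayes with trend, two-sided, no block). The step was tested on simulated data.

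Members and lists were chosen with earlier results of these data known. All members are described, with up to 6 called genes of each other list, those of largest absolute change. Over all probe sets tested, same-numbered samples did not deviate together (correlations -0.01, 0.01 and 0.02). With 3 arrays per group this cannot exclude a pairing that touched few genes, and the labels name no batch. The alternatives were pseudocounts of 1 and 64, no filter and a filter at a signal of 100, quantile normalization, median centring, cyclic loess, no variance trend, robust variances, array weights, the replicate block, the mean over probe sets, and each array left out. Figures used matplotlib 3.10.9.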

Additional observations from a re-analysis of the deposited data

How the results depend on the processing

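The same 11 members were called with pseudocounts of 1 and 64, quantile normalization, cyclic loess and robust variances. The peroxins called higher went from 5 to 3 without the signal filter and to 3 without the variance trend, Pex7 and Pex14 being lost each time, and to between 2 and 5 with 1 array left out. The lowest count came without untreated replicate 1, which cost Pex7, Pex14 and Pex26; without pyruvate replicate 2 or pyruvate replicate 3 it was 3. No peroxin was called lower in any alternative. The peroxin median of 0.18 was 0.21 with the stricter filter, 0.21 with median centring, and 0.10 to 0.20 with 1 array left out, lowest without pyruvate replicate 1. With array weights, and with the mean over probe sets, 6 peroxins were higher, Pex3 being added. The enzymes and transporters called higher went from 4 to 2 with the mean over probe sets, to 3 with the stricter filter, which left Acox3 untested, and were 4 to 5 with 1 array left out. Those called lower went from 2 to 1 with median centring. Their median of 0.13 was 0.08 to 0.20 with 1 array left out, highest without untreated replicate 1. The other peroxisomal genes called higher were 2 to 5, against 4, lowest without untreated replicate 2.

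With the replicate block 12 members were called, Pex3 being added, and all genes called were 2102 higher and 1483 lower, against 2207 and 1546. Changes of sign were seen in 4 genes that were called neither before nor after. Pex10 was at 0.00 with quantile normalization and -0.16 to 0.04 with 1 array left out. Abcd4 was at -0.03 to 0.10 and Acaa1a at -0.05 to 0.25 with 1 array left out. Cat was at 0.01 with quantile normalization, 0.03 with median centring, 0.12 with the mean over probe sets, and -0.09 to 0.07 with 1 array left out. Where a call changed, the cause was not tested. Among dim genes, Hacl1 had an interval of 0.02 to 0.73.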

Other observations

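In 3 genes outside the members, probe sets of the same gene were called in opposite directions. For Idh1, the isocitrate dehydrogenase of cytosol and peroxisomes, the brightest probe set read 1636, 1539 and 1667 in untreated cells and 1811, 1857 and 1753 in pyruvate cells (limma adjusted p = 0.028), while the second read 1153, 1128 and 1146, then 955, 954 and 916 (-0.27, limma adjusted p = 0.00093). After quantile normalization the Idh1 rise did not pass (0.11, limma adjusted p = 0.080). For Mff the brightest fell from 1944 ± 36.9 to 1624 ± 71.7 (SD, n = 3) and the second rose from 487 ± 15.6 to 546 ± 22.7. For Med1 the brightest fell from 656 ± 4.29 to 519 ± 46.9 and another rose from 211 ± 7.42 to 249 ± 17.3. Which transcripts these probe sets read was not tested, and these genes were picked after their values were seen.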
